A study of Homo sapiens with 10 samples.

Results

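D425 is an established human cell line from a Group 3 medulloblastoma, a malignant tumour of the cerebellum. The data described here are the 6 D425 libraries among 10 libraries of poly(A)-selected RNA from D425 and a second Group 3 line, HD-MB03, and they were chosen by the line named in their labels. The study aimed to lower CRX with short hairpin RNAs delivered by the lentiviral vector Tet-pLKO-puro, in which doxycycline switches on the hairpin. The control arm held 2 libraries of parental D425 cells, which carry no vector, and 1 library of cells with the empty vector. The knockdown arm held 3 libraries labelled shCRX, from stable polyclonal populations. The treatment protocol, given in the same words for every library, was 4 µg/ml doxycycline for 72 h. The shCRX libraries can hold either of 2 hairpins, with no label saying which, so values are given per library. Separate cultures are not stated for the libraries of an arm either, and p-values therefore reflect variation among these libraries that may be technical.

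CRX is a homeobox transcription factor of photoreceptors and of the pineal gland. Its homeodomain carries a lysine at the position that favours binding to TAATCC-like sites, and with OTX2, NRL and NR2E3 it drives genes of phototransduction and of the outer segment. Group 3 medulloblastomas are known to express part of this photoreceptor programme, although they arise outside the retina.

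The RefSeq promoters of the targeted gene and of 3 photoreceptor genes that fell are shown because TAATCC is the textbook CRX core. Each window runs from 250 bases before to 50 after the gene's start in build GRCh38.p14, 5′ to 3′ in the direction of the gene. Capitals mark TAATCC, or GGATTA where the match lies on the opposite strand.
CRX (chr19:47821687-47821986, plus strand): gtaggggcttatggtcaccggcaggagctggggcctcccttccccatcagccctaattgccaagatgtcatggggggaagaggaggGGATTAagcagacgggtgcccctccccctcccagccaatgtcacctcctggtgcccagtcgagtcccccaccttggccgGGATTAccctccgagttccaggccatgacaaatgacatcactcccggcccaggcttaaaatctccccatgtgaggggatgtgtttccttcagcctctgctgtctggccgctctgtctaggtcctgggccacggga
PDE6A (chr5:149944744-149945043, minus strand): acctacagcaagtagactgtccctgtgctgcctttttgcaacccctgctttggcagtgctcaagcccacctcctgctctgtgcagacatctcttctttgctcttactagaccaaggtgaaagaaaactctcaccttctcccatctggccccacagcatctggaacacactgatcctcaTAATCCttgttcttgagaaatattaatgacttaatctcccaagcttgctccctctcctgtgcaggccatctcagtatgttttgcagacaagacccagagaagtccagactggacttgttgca
CRB1 (chr1:197268002-197268301, plus strand): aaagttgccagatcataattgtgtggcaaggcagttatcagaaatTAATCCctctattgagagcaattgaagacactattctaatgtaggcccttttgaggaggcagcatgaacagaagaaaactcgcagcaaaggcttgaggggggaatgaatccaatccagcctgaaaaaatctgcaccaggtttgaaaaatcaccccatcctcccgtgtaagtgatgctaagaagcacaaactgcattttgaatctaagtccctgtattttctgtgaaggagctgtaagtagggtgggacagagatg
GNGT1 (chr7:93906317-93906616, plus strand): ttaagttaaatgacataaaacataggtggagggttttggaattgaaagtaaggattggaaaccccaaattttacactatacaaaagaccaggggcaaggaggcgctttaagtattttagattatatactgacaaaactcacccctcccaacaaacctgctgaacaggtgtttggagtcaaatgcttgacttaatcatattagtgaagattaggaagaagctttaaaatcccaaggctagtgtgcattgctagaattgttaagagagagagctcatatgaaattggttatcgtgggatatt
The CRX window held 2 matches, those of PDE6A and CRB1 held 1 each, and the letters were not found in the GNGT1 window. Of the 10 photoreceptor genes described below as lower, 8 had a promoter in the RefSeq table, and 3 of these held a match in at least 1 window (PDE6A, CRB1 and PROM1). A match was found for 6.80% of the 11189 tested genes with a promoter in the table, for 17 of 144 genes that fell and for 12 of 188 that rose. At the level of single windows, 4.96% of the 16376 windows of tested genes held a match. The counts were 17 of 247 windows (6.88%) for genes that fell and 13 of 299 (4.35%) for genes that rose. For the photoreceptor genes that fell they were 3 of 13 windows, and PROM1 held its match in only 1 of its windows. A match is a run of letters and was not tested for binding.

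Reads counted in genes numbered 11.4 to 18.1 M per control library and 9.53, 4.73 and 3.64 M in shCRX 1, 2 and 3. The library numbers in the deposited data run from 117 to 136 in the control arm and from 20 to 49 in the shCRX arm. Arm, number set and depth therefore coincide in D425, and their parts in any difference cannot be told apart. Every shCRX library comes from cells with the vector, while the 2 parental control libraries do not, so carrying the vector is partly tied to arm as well. Correlations of log2 counts per 1 M reads (CPM, counts scaled to the effective library size) were 0.973 to 0.982 among controls, 0.949 to 0.971 among shCRX libraries and 0.933 to 0.959 between arms. These are correlations across genes, which are not independent replicates. The first principal component of the 6 libraries held 42.4% of the variance and separated the arms, and the second held 25.4% and spread the shCRX libraries from -56.9 in shCRX 1 to 46.5 in shCRX 2. The labelled tumour type was checked on 8 Group 3 marker genes, CRX among them. Their summed level was 5882 to 6523 CPM in controls and 3158 to 4831 CPM in shCRX libraries. All 7 tested markers were lower in shCRX, with a median log2 fold change of -0.69. Of these, 3 (GABRA5, IMPG2 and CRX) passed an edgeR adjusted p of 0.05 (42.9%, against 1.37% of all tested genes called lower).

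**Figure D1:**
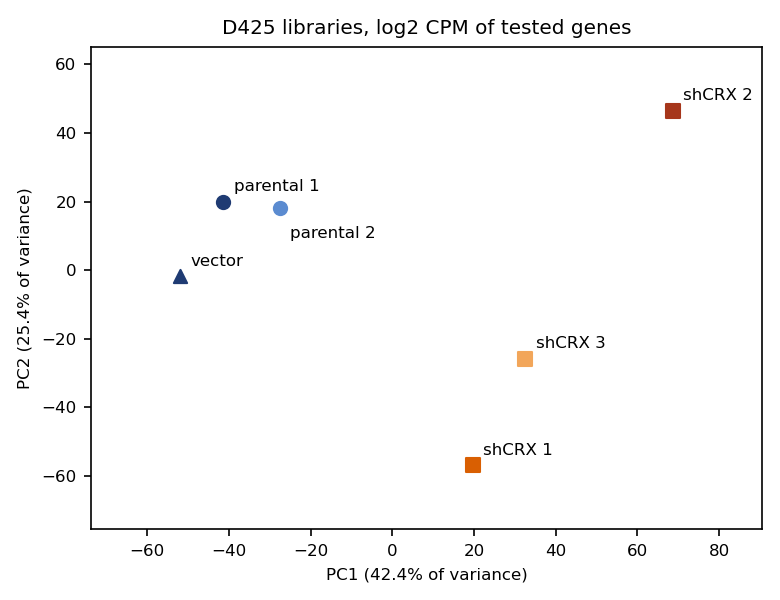
Scores of the 6 D425 libraries on the first and second principal components of log2 CPM, one point per library (circles parental, triangle vector, squares shCRX). The arms separate along the first component (42.4% of the variance), and shCRX 1 and shCRX 2 lie at opposite ends of the second (25.4%).

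CRX itself was lower in every shCRX library. It stood at 47.5, 29.7 and 64.9 CPM in parental 1, parental 2 and vector, and at 20.3, 20.9 and 25.3 CPM in shCRX 1, 2 and 3. The shCRX libraries lay close together and below all controls, while the controls spread widely with parental 2 the lowest. As a log2 fold change this is -1.10 ± 0.26 (SE, n = 3 and n = 3, edgeR adjusted p = 0.0436), and an exact two-sided permutation test gave p = 0.1, the smallest value that 3 against 3 libraries allow. In edgeR fits that left out 1 library, the call was kept only without D425 parental 2. The log2 fold change was -1.10 without D425 parental 1, -0.81 without the vector library, -1.05, -1.08 and -1.23 without shCRX 1, 2 and 3, and -1.11 without any 1 of the 4 HD-MB03 libraries, with edgeR adjusted p from 0.0533 to 0.171.

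Of 16006 genes tested, 476 (2.97%) passed an edgeR adjusted p of 0.05, 257 of them higher in shCRX (1.61%) and 219 lower (1.37%). The rises were mostly of genes with little RNA in the controls, with a median control level of 4.57 CPM against 37.9 CPM for the genes that fell. The median size was 1.81 on the log2 scale for rises and 1.64 for falls, and 114 rises and 83 falls went past 4-fold. The arms did not overlap for 255 of the rises and all 219 falls, against 23.0% of all tested genes. These genes were chosen by a test between the same libraries, so their lack of overlap follows largely from the choice and is not separate evidence. Genes that rose had a median GC content of 59.5% and genes that fell 46.2%, against 48.2% over all tested genes. With unscaled library totals the split was 367 higher and 151 lower, and with a correction for GC content and transcript length it was 189 higher and 273 lower. Without parental 1, the vector library or shCRX 3 the count of calls was 217, 185 and 243. In all, 127 of the 476 genes (69 higher, 58 lower) were called without each of the 10 libraries in turn.

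The photoreceptor genes were described from 5 lists with 122 members, of which 93 were tested. In these, 10 fell and 1 rose, 65 had a negative log2 fold change, and the median was -0.34 against 0.02 over all tested genes. The share that fell was 10.8% against 1.37% of all tested genes. The lists here and below were chosen with earlier results of these data known. Their shares are therefore descriptions and not independent tests of enrichment. The 29 tested phototransduction genes had 4 falls and no rise, with a median of -0.53. Because these are bulk RNA samples, fewer cells with photoreceptor-like expression and less of this RNA per cell cannot be told apart.

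Phosducin, encoded by PDC, binds the beta-gamma dimer of transducin in photoreceptors. PDC stood at 99.7, 35.1 and 78.0 CPM in the controls and at 0.738, 0 and 0.512 CPM in shCRX 1, 2 and 3. It was nearly absent from all 3 shCRX libraries, with 10 counts in the shCRX arm against 3074 in the controls, and the arms did not overlap. This is -7.13 ± 0.63 as a log2 fold change (SE, edgeR adjusted p = 0.00059).

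GNGT1 encodes the gamma subunit of rod transducin, the G protein that rhodopsin activates. Its level was 154, 156 and 123 CPM in the controls and 15.1, 28.5 and 30.2 CPM in shCRX, the lowest in shCRX 1. The controls agreed closely and every shCRX library lay far below them (log2 fold change -2.58 ± 0.29, SE, edgeR adjusted p = 0.00093). GUCA1B encodes a calcium-binding activator of retinal guanylate cyclase. It was at 44.2, 16.4 and 37.4 CPM in the controls and at 1.20, 1.65 and 4.35 CPM in shCRX. Parental 2 was the lowest control, as for PDC and CRX, yet remained above every shCRX library (log2 fold change -3.91 ± 0.50, SE, edgeR adjusted p = 0.0022). PDC, GNGT1 and GUCA1B were called without each library in turn.

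PDE6A, the alpha subunit of rod cGMP phosphodiesterase, was the fourth phototransduction gene that fell. It went from 192, 157 and 215 CPM to 57.1, 88.7 and 101 CPM, a smaller change with no overlap of the arms (log2 fold change -1.20 ± 0.27, SE, edgeR adjusted p = 0.034). Its call was lost without parental 1, the vector library and shCRX 1, 2 and 3, where the log2 fold change was -1.18, -1.09, -1.001, -1.28 and -1.40.

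Among 24 tested genes of the photoreceptor disc and cilium 4 fell (16.7%, against 1.37% of all tested genes) and none rose. None of the 4 was called without each D425 library in turn. In this list 20 had a negative log2 fold change, with a median of -0.41, against 7666 of all 16006 tested genes. RP1L1, a microtubule-associated protein of the photoreceptor cilium, went from 50.4, 20.5 and 36.5 CPM to 3.32, 10.1 and 6.39 CPM (log2 fold change -2.48, edgeR adjusted p = 0.014). CRB1, an apical polarity protein mutated in retinal dystrophies, went from 12.7, 7.83 and 7.54 CPM to 1.29, 0.414 and 2.56 CPM (log2 fold change -2.77, edgeR adjusted p = 0.017). MAK, a kinase that limits the length of the photoreceptor cilium, went from 23.3, 16.8 and 26.4 CPM to 9.32, 6.20 and 7.67 CPM (log2 fold change -1.50, edgeR adjusted p = 0.015). The arms did not overlap for these 3 genes, and the highest shCRX library differed between them. The RP1L1 call was lost without shCRX 3 (-2.52), that of CRB1 without parental 1 (-2.48) and shCRX 1 (-2.74), and that of MAK without parental 1 (-1.46), the vector library (-1.36) and shCRX 3 (-1.51). PROM1, a disc membrane protein, fell less (log2 fold change -0.89, edgeR adjusted p = 0.047). Its call was kept only without shCRX 1, and its value ranged from -1.14 to -0.75 over the fits that left out 1 library.

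Of 18 tested genes of the interphotoreceptor matrix and the photoreceptor synapse, 2 fell (11.1%, against 1.37% of all tested genes). IMPG2, a proteoglycan of the matrix between photoreceptors, was the most abundant photoreceptor gene that fell, at 994, 749 and 846 CPM in the controls and 354, 456 and 560 CPM in shCRX (log2 fold change -0.92, edgeR adjusted p = 0.039). EGFLAM, also called pikachurin, a matrix protein of the photoreceptor synapse, went from 275, 235 and 266 CPM to 137, 142 and 167 CPM (log2 fold change -0.80, edgeR adjusted p = 0.039). Each arm of EGFLAM was tight and the arms did not overlap. Both calls were lost without parental 1, the vector library, shCRX 1 and shCRX 2, with values of -0.80, -0.93, -0.78 and -0.94 for IMPG2 and of -0.75, -0.78, -0.76 and -0.79 for EGFLAM. That of EGFLAM was lost also without shCRX 3 (-0.91) and without HD-MB03 shCRX 1 or 2 (-0.81 and -0.80), and that of IMPG2 also without the HD-MB03 parental or vector library (-0.93 and -0.93).

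The photoreceptor transcription factors were taken without CRX, which was counted apart as the targeted gene and a Group 3 marker. Among the 14 tested, none fell and 1 rose (7.14%, against 1.61% of all tested genes), and 10 had a negative log2 fold change (median -0.26). The gene that rose was SAMD11, a transcriptional regulator expressed in photoreceptors. It was at 22.4, 41.8 and 16.7 CPM in the controls and at 173, 336 and 211 CPM in shCRX, highest in shCRX 2 (log2 fold change 3.15 ± 0.42, SE, edgeR adjusted p = 0.0032). None of the 8 tested visual cycle genes was called (against 2.97% of all tested genes).

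**Figure D2:**
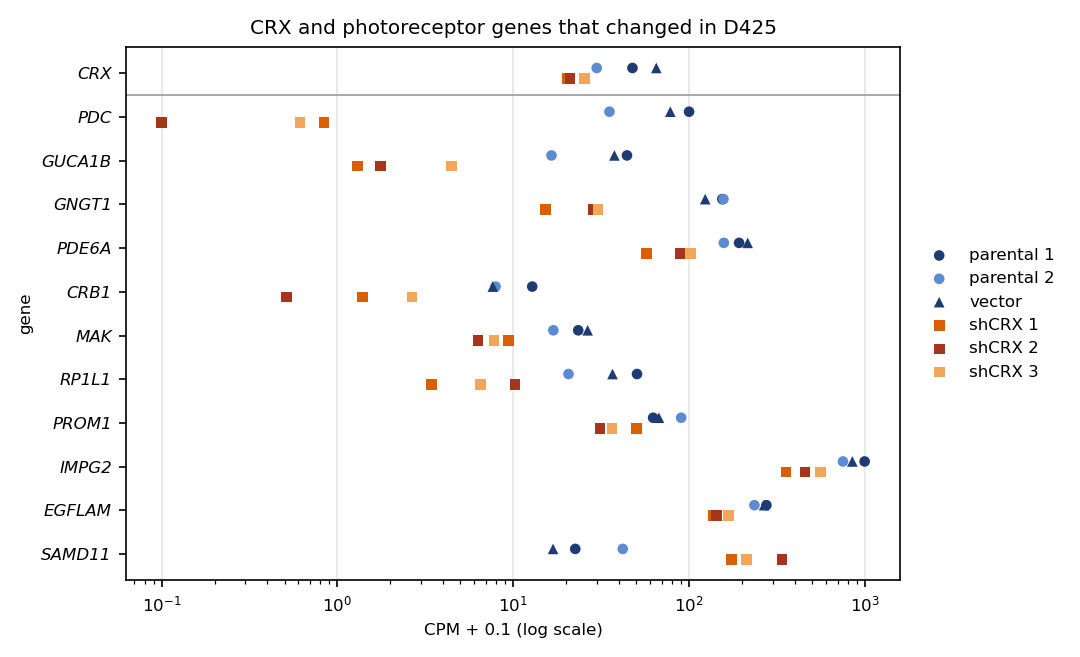
Levels of CRX and of the photoreceptor genes that changed, per library, as CPM plus 0.1 on a log axis. Circles are parental, triangles vector and squares shCRX libraries. PDC, GUCA1B and GNGT1 are separated widely between arms, IMPG2 and EGFLAM narrowly, and SAMD11 alone lies higher in shCRX.

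Bone morphogenetic proteins (BMPs) signal through SMAD1, SMAD5 and SMAD8 and switch on the ID genes, whose products block basic helix-loop-helix factors. Of 26 tested genes of this pathway 6 rose (23.1%, against 1.61% of all tested genes) and none fell, with a median of 0.31, and 3 of the 6 were called without each D425 library in turn. The extracellular antagonist noggin, NOG, was at 13.8, 19.6 and 13.1 CPM in the controls and at 79.7, 85.6 and 74.2 CPM in shCRX. Both arms were tight and far apart (log2 fold change 2.36 ± 0.23, SE, edgeR adjusted p = 0.00059). Gremlin 1, GREM1, a second antagonist, was at 0.056, 0.0807 and 0.454 CPM in the controls and at 8.40, 11.4 and 3.33 CPM in shCRX (log2 fold change 5.34 ± 0.85, SE, edgeR adjusted p = 0.0062).

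The target gene ID3 was at 34.2, 34.9 and 18.6 CPM in the controls and at 117, 247 and 141 CPM in shCRX (log2 fold change 2.52 ± 0.35, SE, edgeR adjusted p = 0.0033). The vector library was the lowest control and shCRX 2 the highest of the other arm. ID1 (2.29, edgeR adjusted p = 0.032) and the inhibitory SMAD6 (2.01, edgeR adjusted p = 0.019) moved the same way, again with shCRX 2 the highest at 394 and 85.4 CPM. The SMAD6 call was lost without parental 1 (1.92) and the vector library (1.96). The ID1 call was lost without parental 1 (2.46), parental 2 (2.51), the vector library (1.94), shCRX 2 (1.53) and HD-MB03 shCRX 1 and 2 (2.29 and 2.29). BMPR1A, a type 1 receptor, was the sixth gene that rose.

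The inhibitory SMAD7, which also restrains signalling by TGF-beta and activin, was at 3.58, 2.34 and 2.64 CPM in the controls and at 13.6, 33.9 and 15.9 CPM in shCRX (log2 fold change 2.86 ± 0.40, SE, edgeR adjusted p = 0.0032). INHBB, the beta B subunit of activin and inhibin, was at 0.224, 0.242 and 0.273 CPM in the controls and at 5.999, 57.5 and 9.21 CPM in shCRX. Its rise was uneven, with shCRX 2 far above the other shCRX libraries (log2 fold change 6.55 ± 1.02, SE, edgeR adjusted p = 0.0073), and the value without shCRX 2 is the lowest of those that leave out 1 library, which run from 4.84 to 7.01. LTBP3, which holds latent TGF-beta in the matrix, went from 6.998, 8.47 and 6.18 CPM to 22.4, 33.5 and 22.0 CPM (log2 fold change 1.84, edgeR adjusted p = 0.0017). INHBB was the 1 rise among 11 tested activin and inhibin genes (9.09%, against 1.61% of all tested genes), whose median was -0.02 with 6 negative. LTBP3 was the 1 rise among 17 TGF-beta ligands, receptors and binders (5.88%, against the same 1.61%, median 0.07). SMAD7, PMEPA1 and SPHK1 were the 3 rises among 31 SMAD2/3 effectors (9.68%, against 1.61% of all tested genes), and 1 of these 3 was called without each D425 library.

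GLI2, a transcriptional effector of Hedgehog signalling, rose from 7.78, 6.78 and 7.18 CPM to 28.6, 31.8 and 24.6 CPM, with both arms tight (log2 fold change 1.97 ± 0.24, SE, edgeR adjusted p = 0.0012). In its pathway 3 of 12 tested genes rose (against 1.61% of all tested genes) and none fell, with a median of 0.54, and 1 of the 3 was called without each D425 library. FGFR1, a receptor for fibroblast growth factors, rose from 3.64, 2.18 and 1.91 CPM to 10.9, 14.9 and 13.6 CPM (log2 fold change 2.31, edgeR adjusted p = 0.0051). Of 27 tested receptor tyrosine kinases 5 rose (18.5%, against 1.61% of all tested genes) and none fell, but 1 of the 5 was called without each D425 library. ETV4, an ETS factor induced by such receptors, was below 0.65 CPM in every control and at 14.8, 9.10 and 4.35 CPM in shCRX (log2 fold change 4.76 ± 0.65, SE, edgeR adjusted p = 0.0032). Its level in shCRX was highest in library 1, unlike that of the BMP genes.

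Of 38 tested axon guidance ligands and receptors 4 rose (10.5%, against 1.61% of all tested genes) and none fell, and 2 of the 4 were called without each D425 library. They were the semaphorin SEMA4C and the receptors PLXNA2, PLXND1 and UNC5B. The netrin receptor UNC5B was at 6.38, 4.60 and 3.82 CPM in the controls and at 49.3, 82.9 and 39.1 CPM in shCRX (log2 fold change 3.51 ± 0.42, SE, edgeR adjusted p = 0.0017). The semaphorin receptor PLXNA2 was at 5.54, 2.42 and 2.09 CPM in the controls and at 24.2, 63.9 and 30.2 CPM in shCRX (log2 fold change 3.50 ± 0.50, SE, edgeR adjusted p = 0.0044). Both were highest in shCRX 2, and every shCRX library stood above every control.

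NRF2 is the transcription factor that induces antioxidant and detoxifying enzymes. Of 25 tested genes of its response 5 rose (against 1.61% of all tested genes, with 4 called without each D425 library) and none fell, while the median was 0.08 and 10 had a negative log2 fold change. The quinone reductase NQO1 was at 24.97, 34.1 and 23.1 CPM in the controls and at 66.7, 91.6 and 83.1 CPM in shCRX (log2 fold change 1.55 ± 0.27, SE, edgeR adjusted p = 0.010). FTH1, the ferritin heavy chain, went from 7.84, 11.8 and 11.5 CPM to 55.8, 40.7 and 51.2 CPM (log2 fold change 2.26 ± 0.23, SE, edgeR adjusted p = 0.00059). FTH1 has many processed pseudogenes, so its reads are uncertain. Sulfiredoxin, SRXN1, had 4 counts over the control arm against 46 over shCRX (log2 fold change 4.55, edgeR adjusted p = 0.0024). The aldo-keto reductase AKR1C1 rose from 0.448, 0.484 and 0.909 CPM to 3.23, 10.3 and 7.16 CPM (log2 fold change 3.47, edgeR adjusted p = 0.0078), and it has close paralogs that can share its reads.

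Other rises called without each library in turn included the protein-coding genes PARM1, KIF26A and PRRX2. KIF26A, an atypical kinesin, was at 8.68, 9.44 and 5.27 CPM in the controls and at 50.02, 148 and 85.7 CPM in shCRX. The homeobox gene PRRX2 was below 0.3 CPM in every control and at 4.34, 47.4 and 12.8 CPM in shCRX, with shCRX 2 again far above the others (log2 fold change 6.54 ± 1.07, SE, edgeR adjusted p = 0.0094). PARM1, a mucin-like membrane protein, went from 4.14, 3.47 and 3.54 CPM to 24.5, 63.7 and 48.1 CPM (log2 fold change 3.59, edgeR adjusted p = 0.00067).

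Among the genes that fell, HSD17B2 had the smallest adjusted p. It encodes an enzyme that oxidises estradiol and testosterone to less active steroids. HSD17B2 was at 36.9, 27.3 and 27.8 CPM in the controls and at 0.277, 0.207 and 0.256 CPM in shCRX, which is 1303 against 5 counts (log2 fold change -6.84 ± 0.45, SE, edgeR adjusted p = 2.4e-05). SLCO5A1, of the organic anion transporter family, had 220 counts in the controls and 0 in shCRX, at least 34.8-fold lower against a floor of 3 counts over the arm. ARHGAP26, which inactivates RhoA, went from 165, 113 and 185 CPM to 9.60, 12.2 and 26.6 CPM (log2 fold change -3.30 ± 0.40, SE, edgeR adjusted p = 0.0019).

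Of 19 tested genes of insulin-like growth factor (IGF) and insulin signalling 3 fell (15.8%, against 1.37% of all tested genes, with 2 called without each D425 library) and none rose, although 11 had a positive log2 fold change. IGFBP2, a secreted binding protein for IGFs, was at 26.3, 22.8 and 12.7 CPM in the controls and at 0.461, 0 and 0.767 CPM in shCRX (log2 fold change -5.62 ± 0.49, SE, edgeR adjusted p = 0.00031). The insulin receptor substrate IRS1 went from 73.8, 83.7 and 86.4 CPM to 43.5, 30.8 and 28.6 CPM (log2 fold change -1.23 ± 0.21, SE, edgeR adjusted p = 0.0086). The third was the insulin receptor, INSR. CCND2, or cyclin D2, which drives entry into S phase, was at 16.2, 29.4 and 18.7 CPM in the controls and at 2.12, 0 and 0.767 CPM in shCRX (log2 fold change -4.11 ± 0.53, SE, edgeR adjusted p = 0.0025). CCND2 was the only called gene of 21 tested genes of the D-type cyclin and RB axis (4.76%, against 2.97% of all tested genes).

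Of 32 tested genes of neuronal synapses and ion channels 4 fell (12.5%, against 1.37% of all tested genes) and none rose, while 14 had a positive log2 fold change. The call was kept without each D425 library for 2 of the 4. Synaptophysin, SYP, a membrane protein of synaptic vesicles, was at 241, 210 and 271 CPM in the controls and at 64.1, 67.8 and 92.3 CPM in shCRX (log2 fold change -1.69 ± 0.19, SE, edgeR adjusted p = 0.00093). The neurexin-family adhesion protein CNTNAP2 went from 118, 58.3 and 55.0 CPM to 17.8, 15.1 and 29.4 CPM (log2 fold change -1.91 ± 0.33, SE, edgeR adjusted p = 0.010). GABRA5, a subunit of the GABA-A receptor that is a marker of Group 3 tumours, went from 45.01, 23.2 and 29.4 CPM to 6.55, 9.31 and 12.02 CPM (log2 fold change -1.85 ± 0.29, SE, edgeR adjusted p = 0.0055). For all 3 genes the arms did not overlap.

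Among 44 tested collagens, laminins, integrins and related genes 2 rose and 2 fell (9.09% called, against 2.97% of all tested genes), and the median was 0.21. The laminin chain LAMA5 rose from 27.5, 41.1 and 44.99 CPM to 97.9, 159 and 118 CPM (log2 fold change 1.72, edgeR adjusted p = 0.0023), and the proteoglycan AGRN rose from 5.32, 5.16 and 3.36 CPM to 15.6, 11.6 and 14.6 CPM (log2 fold change 1.59, edgeR adjusted p = 0.0051). The AGRN call was lost with the correction for GC content and length, where the log2 fold change was 0.91 (edgeR adjusted p = 0.056). ITGA6, the integrin alpha 6 chain of laminin receptors, fell from 268, 211 and 312 CPM to 113, 59.6 and 90.3 CPM (log2 fold change -1.59, edgeR adjusted p = 0.0071). COL6A1 fell (log2 fold change -2.30, edgeR adjusted p = 0.013), with parental 2 at 959 CPM standing above the other controls, and its call was lost without shCRX 1 (-2.30). Among abundant genes, GTF3C1, a subunit of transcription factor IIIC, fell from 715, 610 and 607 CPM to 268, 342 and 287 CPM (log2 fold change -1.11, edgeR adjusted p = 0.0073), and the guanine nucleotide exchange factor DOCK8 fell from 531, 349 and 376 CPM to 133, 158 and 185 CPM (log2 fold change -1.40, edgeR adjusted p = 0.0058).

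**Figure D3:**
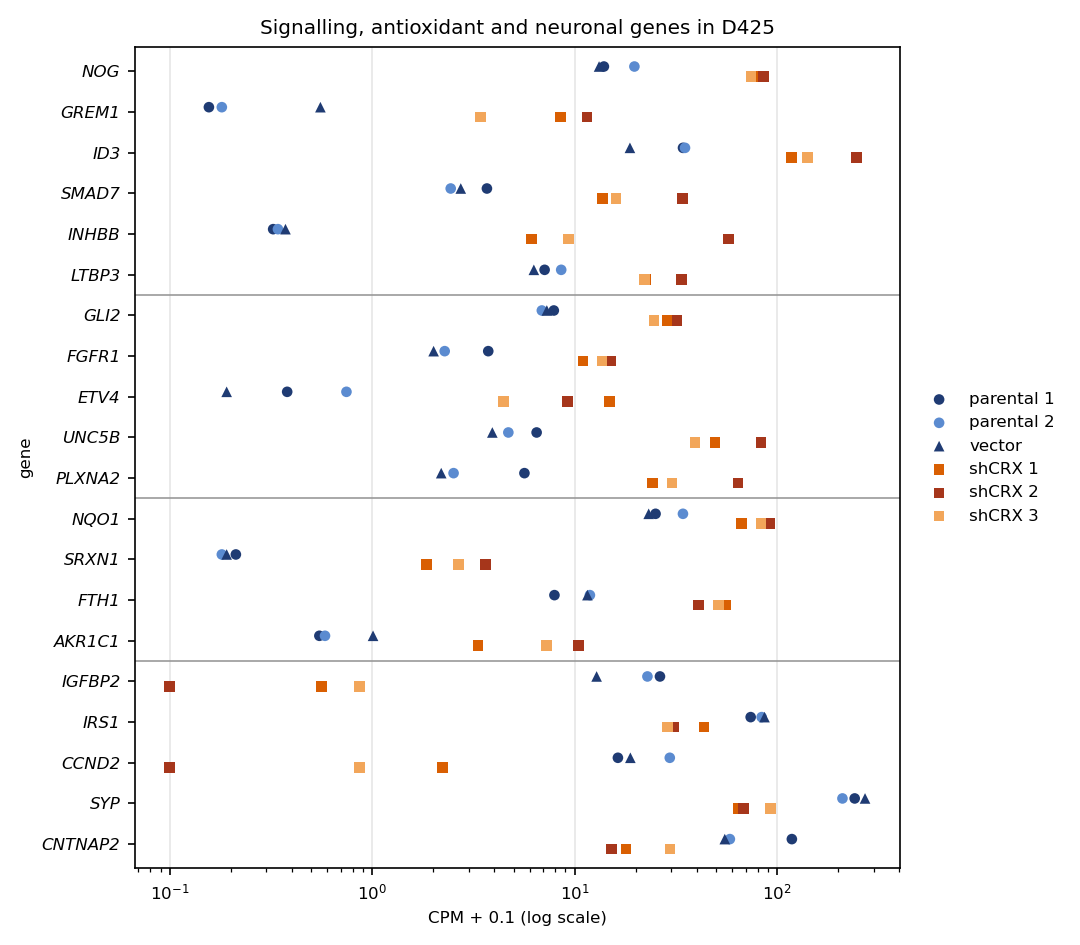
Levels of signalling, antioxidant, growth factor and neuronal genes per library, as CPM plus 0.1 on a log axis, with symbols as in the plot of photoreceptor genes. Lines part the BMP, activin and TGF-beta genes, other signalling genes, NRF2 response genes and genes that fell. The arms do not overlap for any gene shown.

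Several programmes held no call by edgeR. These were DNA replication and mitosis (43 tested, median 0.04), p53 targets (29, 0.04), the integrated stress response (32, -0.22), ribosome biogenesis (31, -0.17) and cytosolic ribosomal proteins (48, -0.17). Of the ribosomal protein genes 42 had a negative log2 fold change. Over all tested genes 2768 had an unadjusted p under 0.05. In simulated data of the same size, the changed genes were drawn only from those above a minimum mean count in D425. There 29.9% of genes changed 2-fold, 86.6% changed 4-fold and 98.5% changed 8-fold were called, so most 2-fold changes were missed. Changes below 2-fold were not simulated. The simulated data held 151 calls in all against 476 in D425, so the cut set by the adjusted p and the recovery can differ. Recovery of genes with fewer counts was not simulated.

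The shCRX libraries differed more among themselves than the controls did. Of 9695 genes with a mean of at least 10 CPM, 174 (1.79%) had a range above 2 on the log2 scale within the shCRX arm and 45 (0.464%) within the control arm. Among the 257 genes that rose, shCRX 2 was the highest shCRX library for 151 and shCRX 1 the lowest for 131. Among the 219 that fell, shCRX 2 was the lowest for 120. The shCRX libraries were also shallower, at 3.64 to 9.53 M counted reads against 11.4 to 18.1 M in the controls, so their counting error is larger. The minimum of 10 CPM applied to the mean of both arms, which lets in genes with few shCRX counts, such as CCND2 at 23, 0 and 3 counts. Which hairpin these libraries carry is not given. The parts of depth and of hairpin in the spread were not tested.

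Of the 12 protein-coding genes with the widest spread within shCRX, 5 belong to the list of the integrated stress response, a programme driven by the transcription factor ATF4 (CHAC1, DDIT3, DDIT4, SESN2 and STC2), and shCRX 2 was the lowest shCRX library for all 12. Of 31 members of that list with a mean of at least 10 CPM, 14 (45.2%) had a range above 2 on the log2 scale within shCRX, against 1.79% of all such genes. The lowest shCRX library was shCRX 2 for 29 of the 31 (93.5%), against 35.3% of all such genes. These counts for the list were taken after the widest genes had been seen. ASS1, argininosuccinate synthase, was at 664, 25.6 and 666 CPM in shCRX 1, 2 and 3 and at 698, 874 and 940 CPM in the controls. DDIT3, or CHOP, was at 155, 10.1 and 46.8 CPM in shCRX and at 33.4, 33.7 and 73.7 CPM in the controls. SESN2, a stress-induced regulator of mTORC1, was at 345, 23.2 and 112 CPM in shCRX and at 92.5, 103 and 183 CPM in the controls. INHBE, an activin subunit outside the list, as is ASS1, and CHAC1 followed the same order, at 360, 15.7 and 128 CPM and at 83.2, 3.52 and 38.4 CPM in shCRX. None of these genes passed the test between arms, with edgeR adjusted p from 0.59 to 0.99.

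Within the control arm the spread was of a different kind. The immediate early genes EGR1, FOS, FOSB and DUSP1 were high in parental 1 alone. EGR1 was at 161, 3.07 and 3.73 CPM in the controls, and FOS at 120, 3.39 and 2.91 CPM. In the shCRX arm both were highest in shCRX 2, at 43.0 and 38.7 CPM. The matrix protein tenascin C, TNC, was high in parental 2 alone, at 66.6 CPM against 8.17 and 5.64 CPM.

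**Figure D4:**
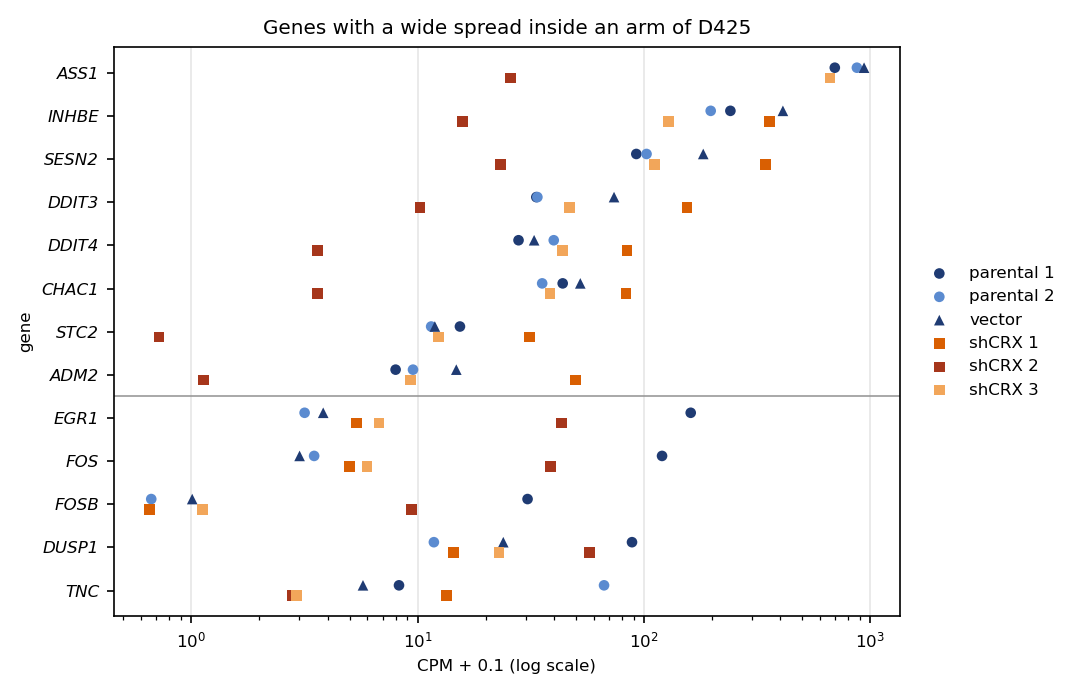
Levels of genes with a wide spread inside 1 arm of D425, per library, as CPM plus 0.1 on a log axis, with symbols as in the plot of photoreceptor genes. The genes above the line, some in the integrated stress response list and others, such as ASS1 and INHBE, outside it, are lowest in shCRX 2. The immediate early genes below the line are highest in parental 1.

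The HD-MB03 libraries offer a comparison in which arm and library number are reversed. There the 2 control libraries, 1 parental and 1 vector, carry the numbers 62 and 60 and the 2 shCRX libraries carry 111 and 110, so the shCRX libraries have the high numbers. Depth is reversed as well, with 2.08 and 1.96 M counted reads in the controls against 14.6 and 14.3 M in shCRX. The HD-MB03 controls also stand apart in alignment, with 30.9% and 26.4% of reads not aligned against 5.001% and 6.49% in HD-MB03 shCRX and 4.54% to 7.99% in D425. CRX was at 12.5 and 12.3 CPM in the HD-MB03 controls and at 27.7 and 23.5 CPM in shCRX (log2 fold change 1.04 ± 0.36, SE, n = 2 and n = 2, edgeR adjusted p = 0.17). The targeted gene was thus higher in the deeper, high-number libraries of both lines, although the HD-MB03 difference did not pass the test. Of the 257 genes that rose in D425, both HD-MB03 shCRX libraries lay below both HD-MB03 controls for 147 (57.2%) and above both for 17 (6.61%). These shares were 21.8% and 30.5% over all tested genes, and 25.6% and 25.3% over the 8290 genes with a positive log2 fold change in D425. For the 69 rises called without each library in turn they were 71.0% and 5.80%. Of the 219 genes that fell, both HD-MB03 shCRX libraries lay above both controls for 82 (37.4%) and below for 36 (16.4%). This is close to the 36.1% and 17.7% of the 7666 genes with a negative log2 fold change in D425. For the 58 falls called without each library in turn the shares were 31.0% above and 20.7% below, near those of all tested genes. For the 10 photoreceptor genes that fell, both HD-MB03 shCRX libraries lay above both controls for 4 (40%) and below for 0. Their median log2 fold change in HD-MB03 was 0.58, against 0.20 for the 7666 genes. For rises and falls alike, a response that differs between the lines and a difference that goes with library number, depth or alignment cannot be told apart.

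The difference between the lines was tested for every gene, as the D425 minus the HD-MB03 log2 fold change, and 666 genes (4.16%) passed. Of the 257 genes that rose in D425, 150 passed this test, and 42 were also called in HD-MB03 (where 1.51% of tested genes passed) in the opposite direction and 0 in the same direction. Of the 219 that fell, 94 passed, and 4 were called in HD-MB03 in the same direction and 1 in the opposite one. The D425 log2 fold change is part of the tested difference. Genes chosen by that value pass more often through the choice itself, so the counts of 150 and 94 are not separate evidence. RAB5IF, a small membrane protein named as an interaction partner of RAB5, was at 0.392, 0.968 and 0.818 CPM in D425 controls and at 10.9, 27.5 and 14.1 CPM in D425 shCRX. In HD-MB03 it was at 19.8 and 13.4 CPM in the controls and at 0.429 and 0.573 CPM in shCRX, high in the libraries with low numbers in both lines. PDC, by contrast, was at 0, 0, 0 and 0.143 CPM in the HD-MB03 libraries, so its fall in D425 has no counterpart there. GNGT1 was at 107 and 194 CPM in HD-MB03 controls and at 273 and 312 CPM in shCRX, higher in the libraries with high numbers in both lines.

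**Figure D5:**
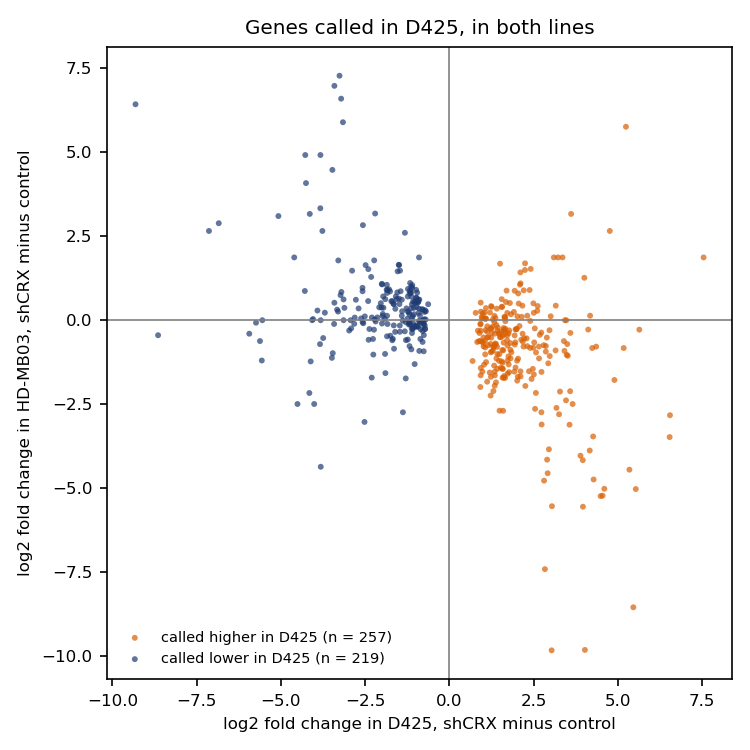
Log2 fold change in D425 (horizontal) and HD-MB03 (vertical) for the 476 genes called in D425, one point per gene, coloured by direction in D425. Of the 257 rises, 147 have both HD-MB03 shCRX libraries below both controls, which places most rises under the horizontal zero line.

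Markers of other cell types were read as whole lists. The 9 retinal pigment epithelium markers summed to 453 to 625 CPM in the controls and to 301 to 495 CPM in shCRX. The 9 epithelial markers summed to 2.86 to 10.5 CPM in the controls and to 9.14 to 15.1 CPM in shCRX. All 3 tested epithelial markers had a positive log2 fold change (median 0.96). No tested member of either list was called (against 2.97% of all tested genes). The 10 leukocyte markers summed to 4.36 to 17.0 CPM in the controls and to 3.31 to 6.39 CPM in shCRX, with CD3E, LYZ and AIF1 at 0 counts in all 6 libraries and 7 of 10 members under 1 CPM. The 9 oligodendrocyte lineage markers summed to 161 to 172 CPM in the controls and to 151 to 182 CPM in shCRX, with MOG and OLIG1 at 0 counts and MBP, MAG and SOX10 under 1 CPM. None of the 3 leukocyte and 4 oligodendrocyte lineage markers tested was called (against 2.97% of all tested genes), and lists this short can hold none at that share. The 10 fibroblast markers summed to 25.9 to 38.1 CPM in the controls and to 51.9 to 85.5 CPM in shCRX. Of 6 tested members 1 was higher (16.7%, against 1.61% of all tested genes), which was PDGFRB (log2 fold change 1.20, edgeR adjusted p = 0.035). FAP was at 0 counts, and PDGFRA, POSTN and THY1 were under 1 CPM in every library. The part of this list in the rises of LAMA5 and AGRN was not tested. The PDGFRB call was lost without parental 1 (1.23), parental 2 (0.98), the vector library (1.38), shCRX 1 (0.88), shCRX 3 (1.24) and the HD-MB03 parental or vector library (1.19 and 1.19). The 8 astrocyte markers summed to 107 to 164 CPM in the controls and to 72.9 to 105 CPM in shCRX, with AQP4 and S100B at 0 counts and SLC1A3 lower (log2 fold change -1.50, edgeR adjusted p = 0.014), a call lost without the vector library (-1.31).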

How the data were processed

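Poly(A)-selected RNA was measured in 10 libraries, of which the 6 of D425 are described. The authors deposited unnormalised read counts per gene, 1 file per library. The submitters' processing notes name bcl2fastq, HISAT2, HTSeq and DESeq2 and the human build GRCh37 (hg19). Versions and the strand setting are not given in the sources used here, so antisense and overlapping genes are uncertain. The annotation used here was of another build and served for symbols, types, GC content and lengths of genes only. Promoters are from RefSeq.

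The files hold 57820 genes and 5 summary entries, which were left out. Depth was 3.64 to 18.06 M counted reads in D425, and 3 counts correspond to 0.166 to 0.824 CPM. Counting intervals and floors cover counting error only. Counts were fitted with edgeR 4.0.16 in R 4.3.3 (TMM, filterByExpr, robust quasi-likelihood, 4 group means over 10 libraries, 6 residual degrees of freedom, two-sided, Benjamini-Hochberg adjusted p under 0.05). The biological coefficient of variation was 26.0%. Each SE is the absolute log2 fold change divided by the square root of the F statistic of its test. It is approximate, above all for genes with few counts in an arm. The procedure was tested on simulated data.

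Named genes were CRX, called list members, and called protein-coding genes with a mean of at least 1 CPM and no overlap of the arms (the 25 largest and 15 most abundant in each direction). To these were added the 12 genes with the widest range in each arm. The text names a selection of them. The members and lists were chosen with earlier results of these data known.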

Additional observations from a re-analysis of the deposited data

Results flagged for a closer look

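Of the 60 genes named with a value, 39 had an effect of the shCRX label that differed between D425 and HD-MB03 in edgeR's test of the difference (D425 minus HD-MB03 log2 fold change, n = 3 and 3 in D425 and 2 and 2 in HD-MB03, adjusted p from 0.000151 to 0.0454). Over all tested genes 4.16% passed. Genes named because they were called in D425 were chosen by a value that is part of this difference, so the count of 39 is not separate evidence. In HD-MB03 the arms are reversed against library number and depth, and the controls there align less well, so a difference between lines and one that goes with these cannot be told apart.

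The difference was negative for 17 genes, which were lower in shCRX in D425 and less so, or higher, in HD-MB03. Among them are 6 of the 10 photoreceptor genes that fell. The values were -4.20 for GUCA1B, -4.12 for RP1L1, -3.56 for ARHGAP26, -3.54 for GNGT1, -3.38 for CRB1, -3.15 for MAK and -2.89 for CCND2. Those of the others were -2.29 for ITGA6, -2.26 for SYP, -2.14 for CRX, -2.14 for SLC1A3, -1.67 for DOCK8, -1.47 for IMPG2 and -1.16 for GTF3C1. The values -9.73 for HSD17B2, -8.20 for SLCO5A1 and -4.999 for IGFBP2 rest on an arm with few or 0 counts and depend on the prior count of the fit.

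The difference was positive for 22 genes, which include NOG, GREM1, ID3, SMAD6 and SMAD7 of the BMP and SMAD genes and NQO1, SRXN1 and FTH1 of the NRF2 response. The values were 2.17 for LAMA5, 2.18 for FGFR1, 2.76 for PDGFRB, 2.77 for NQO1, 2.79 for LTBP3, 3.03 for AGRN, 3.18 for ID3, 3.22 for SMAD6 and 3.37 for GLI2. Those of the others were 3.80 for SMAD7, 3.88 for NOG, 3.97 for PARM1, 4.05 for SAMD11, 4.21 for PLXNA2, 4.21 for FTH1, 4.57 for UNC5B and 5.70 for KIF26A. The values 9.37 for INHBB, 9.61 for RAB5IF, 9.77 for SRXN1, 9.79 for GREM1 and 10.01 for PRRX2 again rest on an arm with few counts.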

How the results depend on the processing

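The count of genes called in D425 was 476. It was 1211 with no filter on low counts (531 higher, 680 lower), 986 with DESeq2 (495 and 491), 21 against the vector library only (4 and 17) and 129 against the parental libraries only (66 and 63). Over the fits that left out 1 library it ranged from 185 to 430 (103 to 243 higher, 82 to 245 lower). Thinning all libraries to the depth of the shallowest gave 307 calls (149 and 158) with reads drawn at random and 70 (33 and 37) with edgeR's thinCounts. The thinCounts run came first, random drawing was adopted after the calls of both had been seen, because edgeR's common dispersion was 0.126 with thinCounts against 0.0676 with all counts and 0.0510 with random drawing, and the cause was not tested. The count of genes differing between the lines, 666, was 1579 with no filter, 1370 with DESeq2, 339 with the correction for GC content and length, 131 with thinCounts, 55 against the vector and 279 against the parental libraries only, and 177 to 841 without 1 library. The cause of these changes was not tested. The log2 fold change of CRX, -1.10, kept its direction in each setting and was not called with library totals (-0.96), limma-voom (-1.05), random thinning (-0.95), thinCounts (-1.39), the D425 libraries alone (-1.10), vector alone (-1.55) or parental alone (-0.81), and ranged from -1.38 to -0.81 without 1 library. With a replicate block on the number shared by parental and shCRX libraries 1 and 2, which share only a number (correlation of their deviations 0.0137), 586 genes were called. Of 2984 values of the 132 other named genes with a call, 2228 kept direction and call, 756 kept the direction and lost the call, and 0 changed direction. Depth limits the genes near 0 counts, since 3 counts are 0.824 CPM in the shallowest D425 library.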
